A study of Mus musculus with 6 samples.

Results

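The hypoxia-inducible factor (HIF) pathway was followed in whole retinas of SIRT6 KO and WT mice through 10 genes, its subunits Hif1a, Epas1 and Arnt, its regulators Egln1, Egln2, Egln3 and Vhl, and its targets Vegfa, Bnip3 and Adm. Every array probe set whose only annotated gene symbol was 1 of these 10 was taken, which gave 11 probe sets (2 for Hif1a, 1 for each other gene) of 23521 with a single symbol and 41345 in all, or 10 genes of 22180. The retinas came from 15-day-old mice of strain 129SvJ, 3 with the Sirt6 KO genotype and 3 with the Sirt6 WT genotype, and total RNA of each was hybridized to 1 Affymetrix Mouse Gene 2.1 ST array. The mice received no treatment that the labels name, and the labels give neither sex nor whether a sample pooled retinas or animals. The KO affects all tissues of the mouse, and SIRT6-deficient mice are known for low blood glucose, so that loss of SIRT6 in the retina and in other tissues cannot be told apart.

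HIF is a pair of proteins, an alpha subunit (HIF1A, or HIF2A encoded by Epas1) and a beta subunit (ARNT). In normal oxygen the prolyl hydroxylases encoded by Egln1, Egln2 and Egln3 modify the alpha subunit, and VHL, the recognition subunit of a ubiquitin ligase, then marks it for destruction. When oxygen is scarce the alpha subunit persists and the pair binds short motifs near its target genes, among them glycolytic genes and the angiogenic factor Vegfa. Much of this control acts on the proteins, which an RNA array does not measure. SIRT6 is known as a corepressor of HIF1A target genes, and in the growing retina Vegfa from glia guides the blood vessels, so that the comparison asked whether HIF genes differ in RNA level when SIRT6 is missing.

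The HIF pair binds DNA at the core motifs ACGTG and GCGTG, and stretches of RefSeq promoters (build GRCm38.p6) are shown here to make that target visible. Both strands were searched over the 300 bases from 250 before to 50 after each start of transcription. RefSeq windows were matched for 9 of the 10 genes, 11 windows in all (2 each for Egln2 and Vegfa), and Epas1 had none. Of these 11 windows 9 held at least 1 core motif, beside 43.8% of all 32851 windows. The genes were chosen as HIF pathway genes, Egln2 and Vegfa count with 2 windows each, and the difference in share was not tested. The windows of Vhl and the first window of Vegfa held none, which says only that these letters do not occur there. A match is a run of letters and not a measured binding site. The stretches below belong to 2 of the hydroxylase genes and 2 targets, and to Igfbp3 and Pfkl, whose values come further down. Capitals mark the core motifs, read as CACGT or CACGC where the motif lies on the opposite strand. Where motifs on both strands overlap, the capitals run together as CACGTG.
Egln1 promoter, chr8:124949298-124949400, minus strand, -146 to -44 from the start: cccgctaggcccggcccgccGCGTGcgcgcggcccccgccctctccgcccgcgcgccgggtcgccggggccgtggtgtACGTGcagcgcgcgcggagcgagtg
Egln3 promoter, chr12:54204079-54204123, minus strand, -249 to -205 from the start: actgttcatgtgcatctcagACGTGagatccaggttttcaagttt
Bnip3 promoter, chr7:138909517-138909643, minus strand, -137 to -11 from the start: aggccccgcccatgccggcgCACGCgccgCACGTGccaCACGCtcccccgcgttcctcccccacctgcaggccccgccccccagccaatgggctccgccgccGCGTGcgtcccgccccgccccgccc
Adm promoter, chr7:110627547-110627627, plus strand, -110 to -30 from the start: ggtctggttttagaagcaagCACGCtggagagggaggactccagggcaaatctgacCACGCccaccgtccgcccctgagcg
Igfbp3 promoter, chr11:7213954-7214131, minus strand, -208 to -31 from the start: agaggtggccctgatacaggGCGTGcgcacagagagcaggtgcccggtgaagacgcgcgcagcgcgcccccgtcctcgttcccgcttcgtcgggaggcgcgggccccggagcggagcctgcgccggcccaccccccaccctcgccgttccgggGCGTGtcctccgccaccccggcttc
Pfkl promoter, chr10:78009882-78009926, minus strand, -119 to -75 from the start: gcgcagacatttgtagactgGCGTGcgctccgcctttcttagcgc
The Bnip3 stretch held 5 matches, of which 2 overlap in CACGTG, while Egln3 held 1 near the far end of its window.

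Sirt6 itself was lower in every KO retina. Its probe set (17243432) had log2 intensities of 6.47, 7.15 and 6.83 in KO replicates 1 to 3, against 9.34, 9.14 and 9.32 in WT replicates 1 to 3, a log2 difference of -2.45 (standard error 0.20, adjusted p = 0.0321 from limma). Sirt6 was the 1 probe set of the 23521 tested that passed at an adjusted p under 0.05 (0.00425%), and 437 (1.86%) had an unadjusted p under 0.05. With the replicate number as a block in the fit, 3 passed after adjustment (0.0128%) and 1720 before it (7.31%). The Sirt6 call ended in several alternatives, given in the closing part. The median log2 intensity lay between 6.94 and 7.06 on KO arrays and between 6.94 and 7.09 on WT arrays. The arrays of KO replicate 2 and WT replicate 2 had interquartile ranges of 2.60 and 2.48, against 2.85 to 3.07 on the other 4, so that these 2 samples stood apart in both genotypes. Retina was recognisable by the rod genes Gnat1 (13.58 to 13.75 in KO, 13.80 to 13.82 in WT) and Sag (13.34 to 13.42 in KO, 13.31 to 13.34 in WT), all as log2 intensity. Of 6 rod genes measured, 3 had a higher and 3 a lower mean in KO. In whole-retina RNA, fewer cells of a type and less RNA per cell cannot be told apart.

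No HIF pathway probe set passed a test of KO against WT retinas after adjustment. Before it, only Egln3 did so, with the samples paired by replicate number (95% interval -0.73 to -0.02 on the log2 scale). The labels do not say that the numbers mark pairs, and the data bore the pairing out only in part, as described with the processing. In limma without the pairing 0 of the 11 passed at an adjusted p under 0.05 (0.00425% of all probe sets tested) and none of them before adjustment, 0 of 11 beside 1.86% of all. The methods' t-test likewise called 0 of the 11, adjusted or not. The KO and WT values overlapped in all 11, while they did not overlap in 5.65% of all probe sets tested. The mean was higher in KO for 3 probe sets and lower for 8, with log2 differences from -0.37 (Egln3) to 0.16 (Adm) and a median of -0.05, beside -0.01 over all probe sets tested. The median size of the difference, sign aside, was 0.08 for the 11 and 0.11 for all. For all 11, the 95% interval of the fold difference from limma without the block lay between 0.5 and 2. A change of 2-fold or more in either direction thus lay outside it. Limma draws the variance of each probe set toward that of all probe sets. Intervals from the values of each probe set alone were not computed and can be wider. Smaller changes were not excluded by these intervals, since the standard errors ran from 0.16 to 0.35 on the log2 scale.

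**Figure D1:**
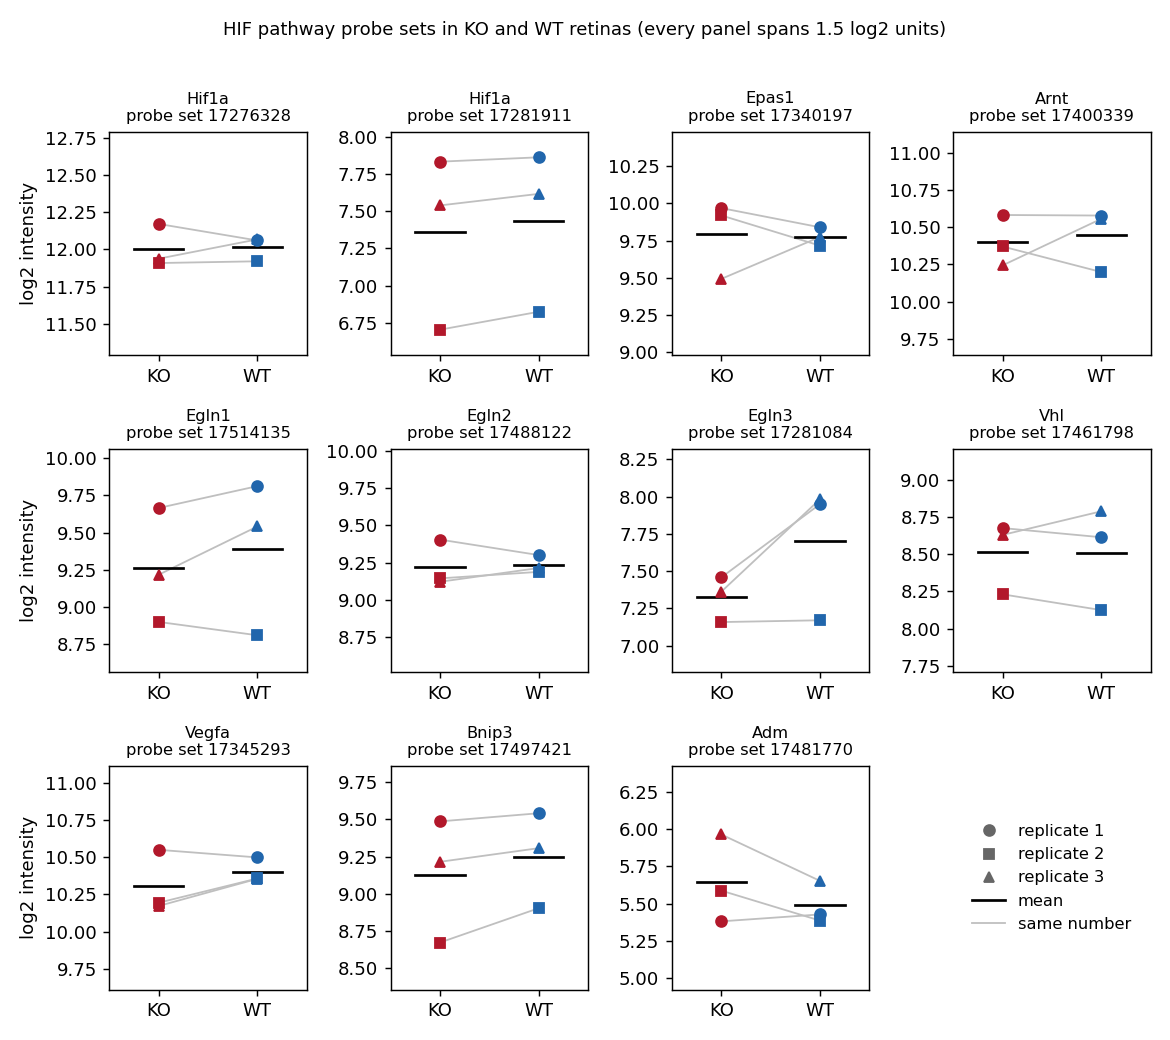
Log2 intensity (vertical axis) of the 11 HIF pathway probe sets in 3 KO (red, left) and 3 WT (blue, right) retinas, with the mean as a bar and grey lines joining samples of the same replicate number. KO and WT values overlap in every panel, and in Egln3 the KO values of 7.16 to 7.46 lie beside WT values of 7.17 to 7.98.

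Hif1a, the alpha subunit best known for the acute response to low oxygen, had nearly the same level in both genotypes. Its brighter probe set (17276328) gave log2 intensities of 12.17, 11.91 and 11.94 in KO replicates 1 to 3 and 12.06, 11.92 and 12.07 in WT replicates 1 to 3. The means were 12.01 ± 0.14 in KO and 12.02 ± 0.08 in WT (SD, n = 3 each), a log2 difference of -0.01 with a 95% interval from -0.38 to 0.36. The other Hif1a probe set (17281911) had 7.83, 6.70 and 7.54 in KO retinas and 7.86, 6.82 and 7.62 in WT retinas. Replicate 2 was the lowest sample of both genotypes there while KO and WT samples of the same number lay within 0.12 of each other. Its log2 difference was -0.08 (95% interval -0.87 to 0.72). Another probe set carried Hif1a together with S100a11-ps as symbols and was left out, since its signal cannot be given to 1 gene.

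Epas1 encodes the alpha subunit HIF2A, prominent in endothelium and known for control of erythropoietin. It had 9.97, 9.92 and 9.49 in KO replicates 1 to 3 and 9.84, 9.72 and 9.77 in WT replicates 1 to 3. The WT values spanned 0.12 and the KO values 0.48, with KO replicates 1 and 2 above and KO replicate 3 below all WT samples. The log2 difference was 0.02 (95% interval -0.40 to 0.43). Of 10 endothelial marker genes 5 had a higher and 5 a lower mean in KO, none with an unadjusted limma p under 0.05. Their summed linear intensity ran from 2889 to 4250 in KO and from 3185 to 4563 in WT retinas. Arnt, the beta subunit shared with other pathways such as that of the aryl hydrocarbon receptor, had 10.58, 10.37 and 10.24 in KO retinas and 10.58, 10.20 and 10.56 in WT retinas. WT replicate 2 was the lowest and WT replicate 1 and KO replicate 1 the highest samples, and the log2 difference was -0.05 (95% interval -0.46 to 0.37).

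Among the 3 prolyl hydroxylases, Egln3 had the largest difference of all the HIF pathway probe sets and Egln2 the least spread. Egln3, a hydroxylase gene that HIF itself is known to switch on, had 7.46, 7.16 and 7.36 in KO replicates 1 to 3 and 7.95, 7.17 and 7.98 in WT replicates 1 to 3. WT replicates 1 and 3 stood above every KO sample, and WT replicate 2 lay among the KO samples. The means were 7.33 ± 0.15 in KO and 7.70 ± 0.46 in WT (SD, n = 3 each), a log2 difference of -0.37 (standard error 0.24, 95% interval -0.93 to 0.18), or 0.771-fold. The unadjusted p was 0.158 and the adjusted p 0.9999 from limma, and the exact two-sided permutation p was 0.30, where 3 against 3 samples cannot go below 0.10. With the replicate number as a block, Egln3 had an unadjusted p of 0.0429 and an adjusted p of 0.681 from limma and was the 1 HIF pathway probe set of 11 under 0.05 unadjusted, where 7.31% of all probe sets were. The differences within the pairs were -0.49, -0.01 and -0.62 for numbers 1 to 3, so that number 2 contributed almost none. KO lay below WT in all 3 pairs for 15.9% of all probe sets. Without the pairing, the Egln3 log2 difference moved with the WT samples. It was -0.64 without WT replicate 2 (unadjusted p = 0.00414, adjusted p = 0.570 from limma), against -0.25 without WT replicate 1 (unadjusted p = 0.397) and -0.23 without WT replicate 3 (unadjusted p = 0.410).

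Egln1, the hydroxylase that carries most of the oxygen-dependent control of HIF1A in many tissues, varied more between samples of 1 genotype than between genotypes. It had 9.67, 8.90 and 9.22 in KO replicates 1 to 3 and 9.81, 8.81 and 9.54 in WT replicates 1 to 3. Replicate 2 was lowest and replicate 1 highest in both genotypes. The KO samples alone spanned 0.76, against a log2 difference of -0.13 (95% interval -0.80 to 0.55). Egln2, a mainly nuclear hydroxylase, had 9.41, 9.14 and 9.12 in KO retinas and 9.30, 9.19 and 9.21 in WT retinas. KO replicate 1 was its highest sample, and the log2 difference was -0.01 (95% interval -0.38 to 0.36). Vhl had 8.68, 8.23 and 8.63 in KO retinas and 8.61, 8.13 and 8.79 in WT retinas, with replicate 2 again lowest in both genotypes. Its means were 8.51 ± 0.24 in KO and 8.51 ± 0.34 in WT (SD, n = 3 each), and the 95% interval of the log2 difference ran from -0.51 to 0.51.

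Of the 3 targets, Vegfa and Bnip3 had slightly lower and Adm slightly higher means in KO, and none passed with or without the replicate number as a block. Vegfa, the main angiogenic factor of the growing retina, had 10.55, 10.19 and 10.17 in KO replicates 1 to 3 and 10.50, 10.36 and 10.36 in WT replicates 1 to 3. KO replicates 2 and 3 lay below the WT samples and KO replicate 1 above them, with a log2 difference of -0.10 (95% interval -0.49 to 0.29). In 7 Müller glia marker genes, a cell type known as a source of retinal Vegfa, 3 means were higher and 4 lower in KO, none with an unadjusted limma p under 0.05. The summed linear intensity of these markers was 17648 to 20677 in KO and 17452 to 21334 in WT retinas. Bnip3, which encodes a mitochondrial protein that takes part in mitophagy, had 9.49, 8.67 and 9.21 in KO retinas and 9.54, 8.90 and 9.31 in WT retinas. KO was below WT in all 3 pairs, by 0.05 to 0.23, while samples of 1 genotype differed by up to 0.81 in KO and 0.64 in WT. The log2 difference was -0.13 (95% interval -0.71 to 0.46). Adm, the gene of the vasodilator peptide adrenomedullin, had 5.38, 5.59 and 5.96 in KO retinas and 5.43, 5.39 and 5.65 in WT retinas. KO replicate 3 was its highest sample. Its log2 difference was 0.16 (95% interval -0.29 to 0.60), and this probe set was dim, between the 11.2 and 23.7 percentiles of the probe sets tested on the 6 arrays.

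**Figure D2:**
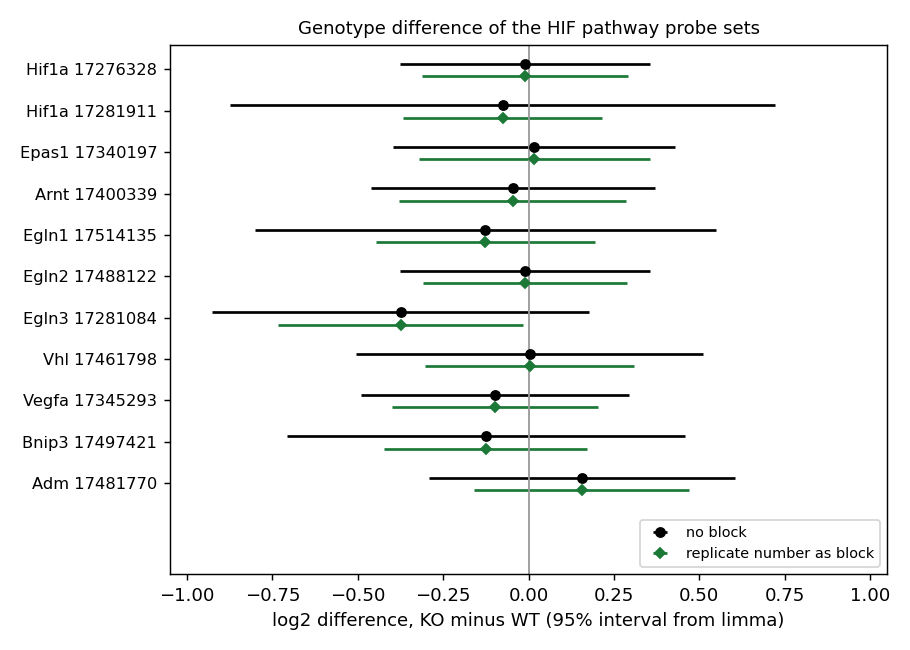
Log2 difference KO minus WT (horizontal axis) of each HIF pathway probe set with its 95% interval from limma, without a block (black circles) and with the replicate number as a block (green diamonds). All intervals without a block include 0, and with the block the Egln3 interval of -0.73 to -0.02 alone does not.

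Several HIF genes had their lowest values in the samples numbered 2 of both genotypes. In 6 of the 11 probe sets (both of Hif1a, Egln1, Egln3, Vhl and Bnip3) KO replicate 2 and WT replicate 2 were the lowest samples of the 6, and in none were they the highest. Over all probe sets tested, both samples numbered 2 were lowest in 27.1% and highest in 25.7%. The larger share among the HIF probe sets was not tested. All of them but Adm were bright enough for the fit without dim probe sets. The shares given cover dim and bright probe sets alike, and a share among bright ones alone was not computed. Relative to the other 4 samples, the samples numbered 2 were lower by 0.95 on the log2 scale for Hif1a probe set 17281911. They were lower by 0.70 for Egln1, 0.60 for Bnip3, 0.52 for Egln3 and 0.50 for Vhl. Epas1 alone was higher in them, by 0.05. For 10 of the 11 probe sets the genotype difference was smaller than the range of values inside each genotype, the exception being Egln3, whose difference exceeded the KO range of 0.30. The same held for 84.2% of all probe sets tested. The narrower intensity range of the arrays numbered 2 moved with these values, and its part in them was not tested.

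**Figure D3:**
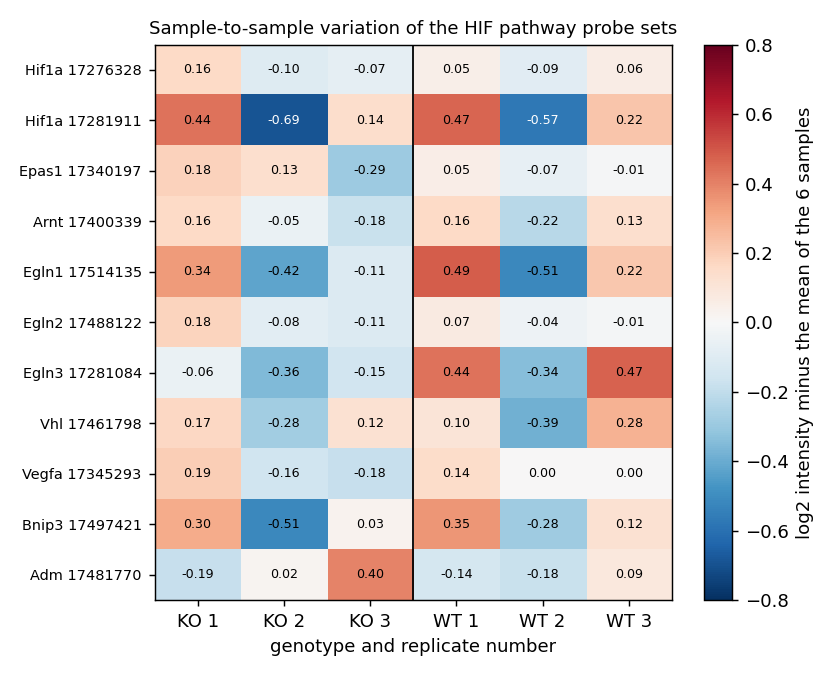
Log2 intensity of each HIF pathway probe set minus its mean over the 6 samples, for KO replicates 1 to 3 (left) and WT replicates 1 to 3 (right), with blue below and red above that mean. The replicate 2 columns are blue in both genotypes for Hif1a, Egln1, Egln3, Vhl and Bnip3.

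The profile of Egln3 over the 6 samples was most like those of Fzd10, 4930402H24Rik and Proser3, with Euclidean distances of 0.0991, 0.115 and 0.140 after each probe set was scaled to a range of 0 to 1. For Adm the nearest were Gm6003, Ing4 and Gm9548, at 0.114, 0.115 and 0.128. These neighbours are a description over 6 samples.

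Beyond the 10 genes, 104 further genes of the pathway were measured in 6 lists, of which 2 had an unadjusted p under 0.05 from limma, Igfbp3 and Pfkl, beside 1.87% of all 22180 genes, and 0 passed after adjustment. With the replicate number as a block 12 of the 104 were under 0.05 unadjusted, beside 7.31% of all genes, and 0 passed after adjustment. Igfbp3, which binds insulin-like growth factors outside the cell and is known as a HIF target, was higher in KO before adjustment (0.924% of all genes were higher at that level). It had log2 intensities of 7.91, 8.49 and 7.78 in KO replicates 1 to 3 and 7.19, 7.09 and 7.30 in WT replicates 1 to 3, so that all KO samples lay above all WT samples. The log2 difference was 0.86 (standard error 0.21, unadjusted p = 0.00346, adjusted p = 0.9999 from limma), or 1.82-fold, with an exact two-sided permutation p of 0.10. Without KO replicate 2, its highest sample, the log2 difference was 0.65. Pfkl, the liver-type phosphofructokinase of glycolysis, was lower in KO before adjustment (0.947% of all genes were), with 10.82, 10.58 and 10.40 in KO retinas and 11.13, 10.92 and 11.03 in WT retinas. Its groups did not overlap either, at a log2 difference of -0.42 (standard error 0.17, unadjusted p = 0.0397, adjusted p = 0.9999 from limma), and the unadjusted p rose to between 0.0896 and 0.136 without KO replicate 2, KO replicate 3, WT replicate 1 or WT replicate 3.

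In the list of glycolytic and glucose transport targets 18 of 19 measured genes had a lower mean in KO, with a median log2 difference of -0.15, beside 51.6% of all genes with a lower mean and a median of -0.01. Before adjustment limma gave 1 of the 19 as lower (Pfkl) and 0 as higher, and with the replicate number as a block Pgam1 joined Pfkl (unadjusted p = 0.0185, adjusted p = 0.630). Pgam1, the phosphoglycerate mutase named here after its values were seen, had 11.91, 11.44 and 11.56 in KO retinas and 11.90 to 12.16 in WT retinas. KO replicate 1 lay just above the lowest WT sample. The gene with the higher mean was Slc2a1, the glucose transporter GLUT1, which carries glucose across the blood-retinal barrier. Slc2a1 had 12.19, 12.03 and 11.88 in KO retinas and 12.08, 11.77 and 12.11 in WT retinas, a log2 difference of 0.05 (95% interval -0.35 to 0.44). The list medians of the samples, relative to the WT mean of each gene, were 0.03, -0.30 and -0.19 in KO replicates 1 to 3 and 0.11, -0.11 and -0.01 in WT replicates 1 to 3. KO replicate 1 lay above WT replicates 2 and 3, so that the genotypes overlapped, while within each of the 3 pairs the KO median was the lower one. Of the 19 genes 17 were lower in KO in all 3 pairs, beside 15.8% of all genes, dim ones included, and the exceptions were Slc2a1 and Pfkfb4. The pairs rest on the replicate numbers alone, and some differences within them were very small, such as -0.0007 for Pfkp in pair 1. The genes of the list were read from the same 6 samples, and the list was not tested as a whole. Its median was -0.09 without KO replicate 2 and -0.23 without KO replicate 1.

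Markers of several cell types, and of the lens, which is not part of the retina, had lower means in KO, as the glycolytic list did. Lower means in KO were found for 10 of 10 lens, 6 of 6 ganglion cell and 7 of 7 pericyte and smooth muscle markers. They were also found for 4 of 4 horizontal cell, 6 of 7 amacrine and 5 of 6 cone markers. Over all genes 51.6% had a lower mean. Rod, endothelial and Müller glia markers, described above, had lower means in 3 of 6, 5 of 10 and 4 of 7. The remaining marker lists are given with the processing. With the replicate number as a block, limma gave an unadjusted p under 0.05 and a lower level for 7 lens, 4 ganglion cell, 2 pericyte and smooth muscle, 2 horizontal cell and 1 amacrine marker. Without the block these were 0 lens, 2 ganglion cell, 0 pericyte and smooth muscle, 1 horizontal cell and 0 amacrine markers. No cone marker was under 0.05 in either fit. After adjustment 0 markers of these lists passed, with or without the block. Among all genes, 761 of 22180 were lower under 0.05 unadjusted with the block and 210 (0.947%) without it. In either direction 7.31% of all genes were under 0.05 with the block. The amacrine marker Th went the other way, 0.57 higher in KO on the log2 scale with no overlap. Its limma p was 0.0109 without and 0.00328 with the block unadjusted, and 0.9999 and 0.490 adjusted. The lens markers summed to 12092 to 34385 in KO and 15274 to 57567 in WT retinas, as linear intensity. Some of them varied widely within a genotype, such as Cryga from 7.15 to 12.83 in KO and Mip from 8.73 to 12.55 in WT (log2 intensity). Whether lens tissue came along with some of the samples was not tested. Ganglion cell markers summed to 5832 to 8282 in KO and 7534 to 10061 in WT retinas. Pericyte and smooth muscle markers summed to 2072 to 3697 in KO and 2554 to 4208 in WT retinas, and horizontal cell markers to 1513 to 2668 in KO and 1885 to 2791 in WT retinas. The sums of KO and WT overlapped in each of these lists. Their part in the glycolytic values was not tested.

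**Figure D4:**
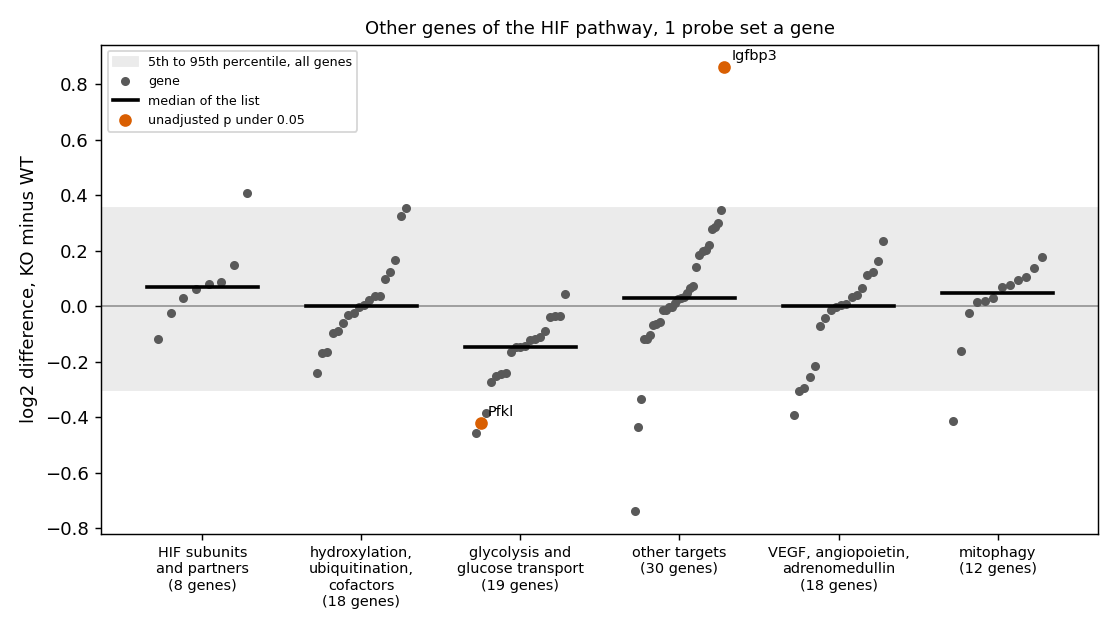
Log2 difference KO minus WT (vertical axis) of 6 lists of further HIF pathway genes, each point a gene, black bars the list medians and the grey band the 5th to 95th percentile of all genes (-0.30 to 0.35). Most points lie inside the band, the glycolytic list sits below 0 with a median of -0.15, and Igfbp3 and Pfkl are marked as under 0.05 unadjusted.

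In the other lists the medians lay near 0 and no gene apart from Igfbp3 had an unadjusted p under 0.05 from limma. The 8 HIF subunits and partners had a median log2 difference of 0.07, with Hif3a, another alpha subunit, at 8.12, 8.55 and 7.18 in KO and 7.69, 7.44 and 7.50 in WT retinas. KO replicate 2 was its highest and KO replicate 3 its lowest sample. Arntl, a related partner of the circadian clock, differed by 0.15 (standard error 0.18). The 18 hydroxylation, ubiquitination and cofactor genes had a median of 0.00. In Siah1a, a ubiquitin ligase known to act on the prolyl hydroxylases, the KO values of 9.13, 9.22 and 9.23 all lay above the WT values of 8.85, 8.79 and 8.97, a log2 difference of 0.32 (standard error 0.15, unadjusted p = 0.0628 from limma). In Cited4, whose protein competes with HIF for its coactivator, the KO values of 7.66, 7.39 and 7.44 all lay below the WT values of 7.73, 7.76 and 7.73, with a log2 difference of -0.24 (standard error 0.16). With the replicate number as a block, Siah1a had an unadjusted p of 0.0355 and an adjusted p of 0.669 from limma. Eloc, which encodes the Elongin C subunit of the VHL complex, was also under 0.05 unadjusted with that block (adjusted p = 0.681 from limma). Its log2 difference was 0.35, with overlapping groups and KO above WT in all 3 pairs.

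The 30 other targets had a median of 0.03, with 17 higher and 13 lower means in KO. With the replicate number as a block 4 of them joined Igfbp3 under 0.05 unadjusted, and they are named for that result, after their values were seen. The heme oxygenase gene Hmox1 had 7.39, 5.71 and 7.76 in KO retinas and 7.73, 6.20 and 9.15 in WT retinas (log2 difference -0.74, unadjusted p = 0.0071 with the block in limma). Replicate 2 was its lowest sample in both genotypes and WT replicate 3 its highest. Ak4, a mitochondrial adenylate kinase, differed by -0.43 and Plod1, a collagen lysyl hydroxylase, by -0.33 on the log2 scale, with KO below WT in all 3 pairs for both. Mxi1, an antagonist of MYC, differed by 0.35, with KO above WT in all 3 pairs. KO and WT values overlapped in all 4, and the adjusted p with the block ran from 0.554 to 0.681 in limma.

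The receptors and ligands around Vegfa and Adm showed 9 higher and 9 lower means among 18 genes, with a median log2 difference of 0.00. Vegfb, a Vegfa relative that binds its receptor FLT1, had 10.06, 9.77 and 9.90 in KO retinas and 10.27, 10.08 and 10.26 in WT retinas, with no overlap and a log2 difference of -0.30 (standard error 0.16, unadjusted p = 0.105 from limma). Adm2, a relative of adrenomedullin, had 5.66, 5.84 and 5.65 in KO retinas and 5.86, 6.23 and 5.97 in WT retinas, at a log2 difference of -0.30 (standard error 0.17). Both had an unadjusted p under 0.05 with the replicate number as a block (0.0494 for Vegfb and 0.0451 for Adm2) and an adjusted p of 0.683 and 0.682 from limma there. The Adm2 probe set was dim, between the 18.0 and 26.8 percentiles of the probe sets tested on the 6 arrays. Among 12 mitophagy genes, where Bnip3 acts, 9 means were higher and 3 lower in KO with a median of 0.05. Bcl2, the survival factor that Bnip3 binds, had 8.71, 8.43 and 8.30 in KO retinas and 9.18, 8.44 and 9.06 in WT retinas. WT replicate 2 lay among the KO samples, as it did for Egln3, and the log2 difference was -0.41 (standard error 0.23), with an unadjusted p of 0.0376 from limma once the replicate number was a block. Becn1, a core gene of autophagy, differed by 0.18 (standard error 0.18).

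**Figure D5:**
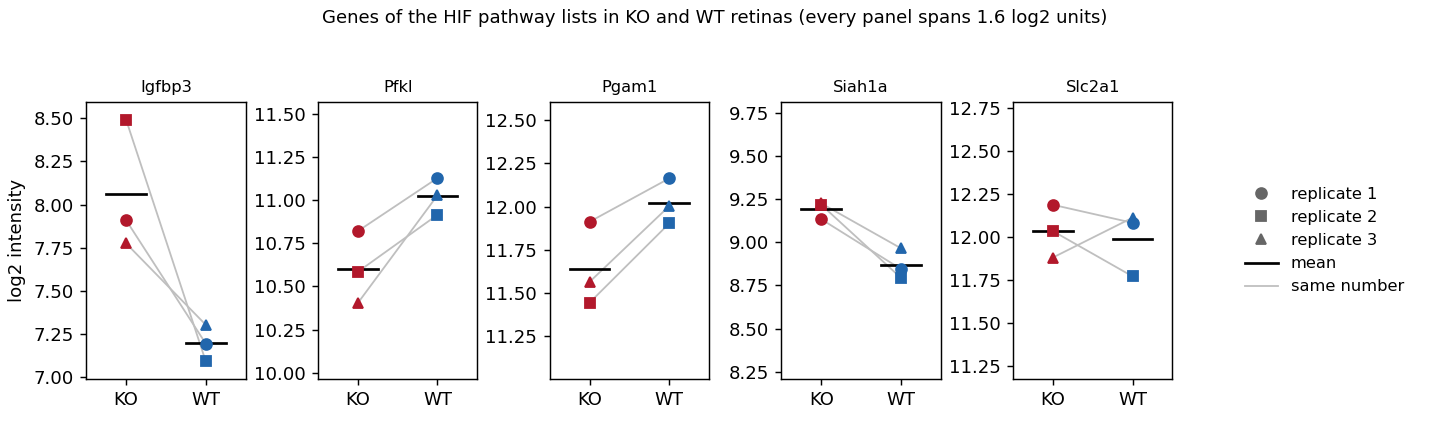
Log2 intensity (vertical axis) of 5 further HIF pathway genes in 3 KO (red, left) and 3 WT (blue, right) retinas, with the mean as a bar and grey lines joining samples of the same replicate number. KO and WT values are apart in Igfbp3 (higher in KO), Pfkl (lower in KO) and Siah1a (higher in KO), and overlap in Pgam1 and Slc2a1.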

How the data were processed

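The authors processed the array files with RMA (background correction, then quantile normalization, then 1 summary value a probe set), and the deposited intensities are on a linear scale (8.01 to 16601 in WT replicate 1), so log2 was taken. Package version, annotation and genome build are not given in the sources used here. Gene symbols were those of the platform annotation (1820 probe sets with several and 16004 without a symbol were not tested), and 4 list genes were matched through older symbols in RefSeq. KO was compared with WT by limma 3.58.1 in R 4.3.3, two-sided, with Benjamini-Hochberg adjustment over 23521 probe sets at 0.05, beside exact permutation tests of the means (SciPy 1.17.1 and NumPy 2.4.6 under Python 3.11.15). The fit was tested on simulated data with independent noise in each sample, which does not cover variation shared between samples. Lists used 1 probe set a gene, that of largest variance, and no set test. Probe sets differ in response, so levels are not compared between them. Sums of linear intensity weigh the brightest probe sets most. Arrays give no read depth, and their number limits the precision.

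The labels give 1 KO and 1 WT sample the same replicate number. Deviations from the genotype means correlated at 0.63, 0.74 and 0.19 for numbers 1 to 3, above 0.1 in every pair, so the numbers were taken to pair the samples. Samples of different numbers also correlated (KO replicate 1 with WT replicate 3 at 0.51, KO replicate 3 with WT replicate 1 at 0.12). A value above 0.1 thus does not by itself mark a pair, and the pairing of numbers 1 and 3 is weakly borne out. Unadjusted calls gained with the block are given beside those without it. The labels do not say that samples came from separate animals, so p-values measure the spread between these samples. The genes, lists and rules were chosen with earlier results of these data known. The named genes are the 10 genes, Sirt6, Slc2a1, in each list those under 0.05 unadjusted without overlap (otherwise the 2 of smallest p), and the 3 nearest profiles of the 2 HIF genes of smallest p. Pgam1, Pfkfb4, Eloc, Hmox1, Ak4, Plod1, Mxi1 and Th were chosen after their values were seen. Marker lists of other cell types were read the same way, and the summed levels of KO and WT overlapped in every one. Lists of bipolar cell, astrocyte, microglia, red blood cell and pigment epithelium markers, not given in the results, had lower means in KO for 4 of 6, 2 of 4, 3 of 6, 1 of 1 and 5 of 8 genes, with 1 bipolar marker under 0.05 unadjusted.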

Additional observations from a re-analysis of the deposited data

How the results depend on the processing

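No HIF pathway probe set passed at an adjusted p under 0.05 from limma in any of 16 alternatives (lowest adjusted p 0.117). At an unadjusted p under 0.05, 0 passed as reported, 1 with the replicate block, without WT replicate 2 (range 0 to 1 over samples left out), without both samples numbered 2 or with the interquartile range as covariate (Egln3 each time), and 2 with array weights (Egln3 and Egln1). That weighting did not converge fully and rested mostly on WT replicate 1. The fits without both samples numbered 2 and with the covariate were chosen after seeing the data. Egln3 and Vegfa kept a lower mean in KO in every alternative, and the other 9 probe sets, none of which passed, changed sign at least once. Beyond samples left out singly, Hif1a went to 0.0082 (17276328) and 0.029 (17281911) and Egln2 to 0.0013 with the covariate, Epas1 to -0.094 and Vhl to -0.060 with array weights, and Epas1 to -0.076, Vhl to -0.048 and Egln2 to 0.0056 without both samples numbered 2. Arntl and Slc2a1 went to -0.051 and -0.067 with array weights and to -0.042 and -0.063 without both samples numbered 2.

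With 1 sample left out the log2 difference ran from -0.093 to 0.038 and from -0.38 to 0.25 for the Hif1a probe sets (in the same order), -0.071 to 0.17 for Epas1, -0.17 to 0.032 for Arnt, -0.42 to 0.085 for Egln1 and -0.10 to 0.040 for Egln2. It ran from -0.19 to 0.14 for Vhl, -0.31 to 0.10 for Bnip3, -0.0047 to 0.29 for Adm, -0.063 to 0.12 for Slc2a1, -0.64 to -0.23 for Egln3 and -0.22 to -0.032 for Vegfa. Adm and Adm2 were too dim to enter the fit without dim probe sets. The glycolytic list median ran from -0.23 to -0.090. Of the list medians, 2 of 102 values moved by more than the spread of the samples, both with 1 sample left out.

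Of the 104 list genes, 2 were under 0.05 unadjusted as reported, 12 with the replicate block, 5 by the methods' t-test, 6 after repeated quantile normalization, 18 with array weights, 4 without both samples numbered 2, 9 with the covariate and 1 to 7 with 1 sample left out (7 without WT replicate 2, 6 without KO replicate 1, and 1 without KO replicate 2, WT replicate 1 or WT replicate 3). Probe sets under 0.05 unadjusted, 437 as reported, were 1720 with the block, 919 with quantile normalization again, 204 without dim ones, 675 over all probe sets, 4536 with array weights, 1480 without both samples numbered 2, 2195 with the covariate and 201 to 2027 with 1 sample left out. Adjusted calls, 1 as reported, were 3 with the block, 2 without dim probe sets or with the covariate, 5 with array weights, 0 with the methods' t-test, median centring, all probe sets or without both samples numbered 2, and 0 to 1 with 1 sample left out. The Sirt6 call ended, at a log2 difference of -2.45 (the methods' t-test, all probe sets), -2.44 (median centring), -2.67 (without both samples numbered 2) and -2.61 to -2.27 with 1 sample left out, where it held without KO replicate 2 only. The cause was not tested for any of these.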
